A study of Mus musculus with 24 samples.

Results

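The genes described here code for SR splicing factors, with Srsf5 at their head: Srsf5, Srsf1, Srsf2, Srsf3, Srsf4, Srsf6, Srsf7, Srsf10 and Srsf11, together with Luc7l3, a gene of a related protein. They were chosen by name, as features of the array whose single gene symbol is one of these 10. Of the 10 genes, 9 had such a feature, and these genes were read by 11 of the 34351 features, since Srsf1 and Srsf6 have 2 each. No feature carries Srsf7 alone in the probe annotation, and Srsf7 was not analysed here. The group was drawn up with earlier results of these data known, in which Srsf5 stood out over the light-dark cycle. The values over time, and the calls of members in tests run over all genes, are therefore given as a description. The members had no test over time of their own.

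Transcripts were measured in heart muscle (labelled myocardium) of male mice aged 8 weeks, all homozygous for the Clock delta 19 mutation. The mutant CLOCK protein lacks a stretch of its activating region and still pairs with its partner, but drives transcription poorly. Every animal carried it, so no wild-type level stands beside these values. The mice lived under 12 h of light and 12 h of darkness. Times are in Zeitgeber time (ZT), the hours since the lights came on. The light phase is covered by the groups ZT03, ZT07 and ZT11, the dark phase by ZT15, ZT19 and ZT23, with 4 hearts in each and 24 in all, and 1 array per heart. Each value is a difference from the gene's own median over the 24 hearts, on a log scale taken as log2. Levels of different genes therefore cannot be set against each other, and the labelled tissue cannot be checked by the presence of its markers. In whole heart tissue, fewer cells of a type and less RNA per cell cannot be told apart.

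SR proteins bind pre-mRNA through RNA recognition motifs and recruit the splicing machinery through a tail rich in arginine and serine. Kinases of the SRPK and CLK families phosphorylate this tail and set whether the proteins are active and where in the nucleus they sit. Many SR genes control their own output by including an exon with an early stop codon, which sends the transcript to nonsense-mediated decay. In mouse heart, Srsf1 is needed for the switch to adult splicing of genes that handle calcium.

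Srsf5, which codes for a small SR protein with a pair of RNA recognition motifs, was high early in the light phase and low early in the dark phase. At ZT03 the 4 hearts lay at 0.26, 0.31, 0.13 and 0.10, and at ZT07 at 0.40, 0.30, 0.13 and 0.16. At ZT11 they lay at -0.09, -0.03, 0.05 and 0.27, and at ZT15 at -0.23, -0.50, -0.07 and -0.35. They lay at -0.25, -0.16, -0.14 and -0.29 at ZT19, and at 0.11, 0.03, -0.07 and -0.20 at ZT23. All 8 hearts of ZT03 and ZT07 thus lay above all 8 hearts of ZT15 and ZT19, while the hearts of ZT11 and ZT23 overlapped with both of these sets.

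Srsf5 averaged 0.20 ± 0.10 (ZT03), 0.25 ± 0.12 (ZT07) and 0.05 ± 0.15 (ZT11) in the light, and -0.29 ± 0.18 (ZT15), -0.21 ± 0.07 (ZT19) and -0.03 ± 0.13 (ZT23) in the dark (SD, n = 4). In order of level, ZT07 came first, followed by ZT03, ZT11, ZT23, ZT19 and ZT15. The hearts of every pair of neighbours in this order overlapped. The step to ZT15 from ZT11, across lights off, was the largest between times 4 h apart (-0.34 ± 0.09, SE of the fit), and the step to ZT03 from ZT23, across lights on, was 0.23 ± 0.09. Over the light phase the lowest, median and highest of the 12 hearts were -0.09, 0.15 and 0.40, against -0.50, -0.18 and 0.11 in the dark phase. The dark-phase median was exceeded in 12 of 12 light-phase hearts, and 8 of them exceeded every dark-phase heart. The difference of light minus dark was 0.34 ± 0.05 (SE), a 1.27-fold difference if the base is 2. A cosine of period 24 h had an amplitude, the distance from mean to peak, of 0.27 ± 0.04 (SE) and a peak at ZT5.31.

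Luc7l3, whose protein is a mammalian relative of a component of the yeast U1 particle and carries its own arginine- and serine-rich tail, ran the other way. Its 4 hearts lay at 0.03, -0.07, -0.08 and -0.16 at ZT03, at -0.23, -0.07, -0.04 and -0.03 at ZT07 and at -0.08, -0.12, -0.05 and -0.16 at ZT11. In the dark phase they lay at 0.14, -0.10, 0.11 and 0.24 at ZT15, at 0.15, 0.13, 0.16 and 0.03 at ZT19 and at 0.21, 0.29, 0.11 and 0.34 at ZT23. All 4 hearts of ZT23 lay above all 12 light-phase hearts, and 10 of the 12 dark-phase hearts did so. The exceptions were replicate 2 of ZT15 and replicate 4 of ZT19.

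Luc7l3 averaged -0.07 ± 0.08 (ZT03), -0.09 ± 0.09 (ZT07) and -0.10 ± 0.05 (ZT11) in the light, and 0.10 ± 0.14 (ZT15), 0.12 ± 0.06 (ZT19) and 0.24 ± 0.10 (ZT23) in the dark (SD, n = 4). The 3 light-phase means lay within the spread of single time points of each other, and the hearts of ZT15 and ZT19 overlapped. The step to ZT03 from ZT23 was -0.31 ± 0.06 (SE) and the step to ZT15 from ZT11 was 0.20 ± 0.06 (SE), each opposite in sign to that of Srsf5. Light minus dark was -0.24 ± 0.04 (SE), with a light-phase median of -0.08 and a dark-phase median of 0.15. The 24 h cosine had an amplitude of 0.16 ± 0.03 (SE) and a peak at ZT20.2.

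**Figure D1:**
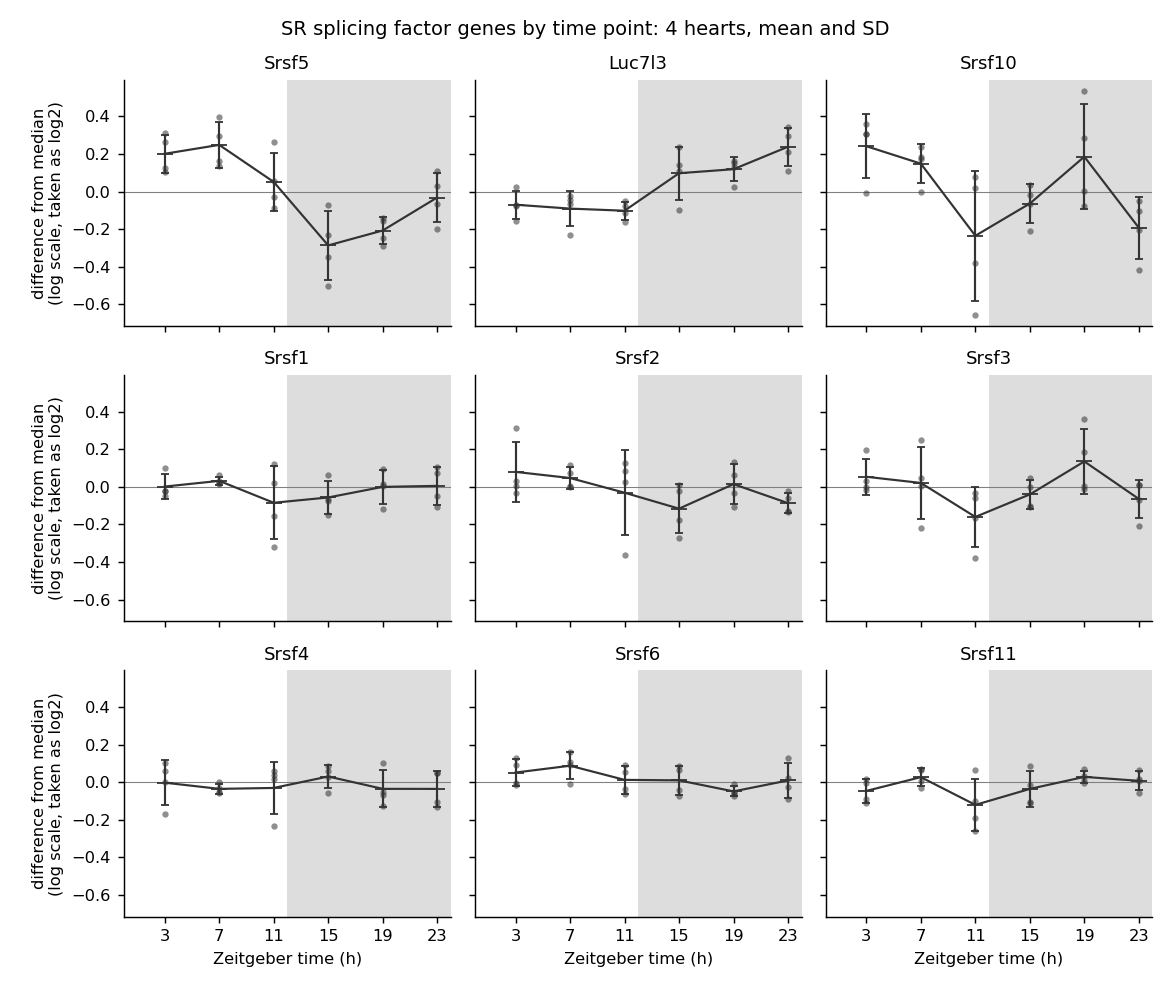
The 9 measured genes by Zeitgeber time in hours, on a log scale taken as log2, as differences from each gene's median over 24 hearts: points are the 4 hearts of a time point, bars the mean and SD, and grey the dark phase. Srsf5 lies high at ZT03 and ZT07 and low at ZT15 and ZT19, Luc7l3 is high in the dark phase, and Srsf10 has the widest spread within time points.

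Because Srsf5 and Luc7l3 carry the differences between the phases, the 250 bases before the RefSeq gene start of each are shown, 5′ to 3′ on the strand of the gene in GRCm38.p6. Srsf5 is on chr12:80945249-80945498 (plus strand, 56.8% G and C) and Luc7l3 on chr11:94321964-94322213 (minus strand, 69.6% G and C), where the median over all 32851 such windows is 52.4%. Capitals would mark a match to a searched motif, and neither window has one.
Srsf5: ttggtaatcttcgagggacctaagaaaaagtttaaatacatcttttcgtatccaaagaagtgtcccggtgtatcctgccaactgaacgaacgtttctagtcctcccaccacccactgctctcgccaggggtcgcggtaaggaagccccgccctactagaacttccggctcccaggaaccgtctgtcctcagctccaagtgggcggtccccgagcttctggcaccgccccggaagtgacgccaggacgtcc
Luc7l3: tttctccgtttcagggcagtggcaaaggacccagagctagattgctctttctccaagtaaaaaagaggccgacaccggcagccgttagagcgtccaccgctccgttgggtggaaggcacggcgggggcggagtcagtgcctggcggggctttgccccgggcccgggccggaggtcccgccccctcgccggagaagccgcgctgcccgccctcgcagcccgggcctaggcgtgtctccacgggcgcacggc
The motifs were searched on both strands, overlaps counted. They were CACGTG, the E-box bound by CLOCK and its partner (in 6.02% of all windows), TTANGTAA for the D-box (2.06%), TGACGTCA for the cyclic AMP response element (1.55%), GAANNTTC for a pair of heat shock units (6.69%) and AGGTCA for a nuclear receptor half-site (14.0%). Over the 13 windows of the 10 genes, Srsf7 included, the only match was AGGTCA in Srsf3, at position -42 from the gene start. A match or its absence in these windows is a description of letters, and nothing follows from it about the factors.

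Srsf10, whose protein represses splicing when it loses its phosphates in heat shock or mitosis, had the largest range of means after Srsf5. Its hearts lay at 0.31, 0.36, 0.30 and -0.01 at ZT03, at -0.00, 0.19, 0.24 and 0.17 at ZT07 and at -0.38, 0.02, -0.66 and 0.08 at ZT11. They lay at -0.02, -0.21, -0.07 and 0.04 at ZT15, at 0.28, -0.08, 0.00 and 0.53 at ZT19 and at -0.42, -0.20, -0.05 and -0.10 at ZT23. The means followed a pattern with high values at ZT03 (0.24 ± 0.17, SD, n = 4) and ZT19 (0.19 ± 0.28, SD) and low ones at ZT11 (-0.24 ± 0.35, SD) and ZT23 (-0.19 ± 0.16, SD). Even the hearts of ZT03 and ZT11, the times of the highest and lowest mean, overlapped. A feature listed for both Gpr141 and Srsf10 was not used. The SD within time points of Srsf10 was 0.21, above 98.6% of all genes, where the median gene has 0.087. Its 24 h amplitude was 0.11 ± 0.07 (SE) and light minus dark was 0.08 ± 0.08 (SE).

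Srsf3, which codes for the smallest SR protein and links splicing to mRNA export, was lowest at ZT11 (-0.16 ± 0.16, SD, n = 4) and highest at ZT19 (0.14 ± 0.17, SD). Its ZT11 hearts lay at -0.38, -0.17, -0.03 and -0.06 and its ZT19 hearts at -0.01, 0.36, 0.18 and 0.01. Apart from replicate 2 of ZT19, the dark-phase values stayed below the highest of the light phase. Srsf2, known as the speckle protein SC35, had its highest mean at ZT03 (0.08 ± 0.16, SD) and its lowest at ZT15 (-0.12 ± 0.13, SD). The ZT03 mean of Srsf2 rests on replicate 4, at 0.32, with the other hearts at -0.03, 0.00 and 0.03. Light minus dark was -0.04 ± 0.05 for Srsf3 and 0.09 ± 0.05 for Srsf2 (SE).

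Srsf11, whose protein contacts the factors that recognise the 3′ splice site, had means between -0.12 ± 0.14 at ZT11 and 0.03 ± 0.03 at ZT19 (SD, n = 4), with light minus dark at -0.05 ± 0.03 (SE). Srsf4, which codes for a long SR protein related to Srsf5 and Srsf6, had the flattest profile of the 9 genes. Its means lay between -0.04 ± 0.10 at ZT23 and 0.03 ± 0.06 at ZT15 (SD), its amplitude was 0.01 ± 0.03 and its light minus dark difference -0.01 ± 0.04 (SE). Neither gene had a pair of time points whose means differed by more than 0.15.

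The features of Srsf1 and of Srsf6 did not give the same profile. Srsf1 codes for the founding SR protein, a broad activator of splicing. Feature 17254916 of Srsf1 lay at 0.05 ± 0.09 at ZT03 and -0.20 ± 0.21 at ZT11, while feature 17267553 lay at -0.05 ± 0.07 and 0.03 ± 0.19 at these times (SD, n = 4). The correlation of the features over the 24 hearts was 0.37 for Srsf1 and 0.13 for Srsf6. Srsf6 codes for a protein close in build to that of Srsf5. Feature 17379128 of Srsf6 was highest at ZT07 (0.11 ± 0.06) and lowest at ZT19 (-0.12 ± 0.10, SD), with light minus dark at 0.12 ± 0.04 (SE). For this feature 12 of 12 light-phase hearts were above the dark-phase median. It did not pass light minus dark (adjusted p with limma over all features 0.294), the 24 h test (0.303) or the F test (0.467). Feature 17548230 of Srsf6 had 0.06 ± 0.11 at ZT07 and 0.02 ± 0.05 at ZT19 (SD), with light minus dark at -0.00 ± 0.03 (SE). The averages used elsewhere, 0.00 ± 0.04 for Srsf1 and 0.06 ± 0.03 for Srsf6 in light minus dark, therefore join features that differ. The transcripts that each feature reads are not stated in the labels or the probe annotation.

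**Figure D2:**
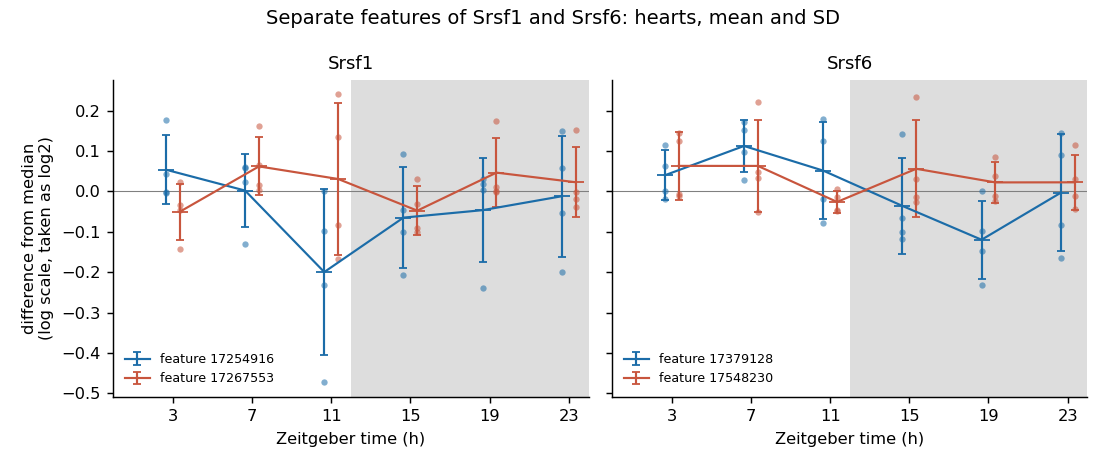
The separate features of Srsf1 and Srsf6 by Zeitgeber time in hours, as differences from the median on a log scale taken as log2: points are hearts, bars the mean and SD of 4 hearts, and grey the dark phase. For Srsf6, feature 17379128 is at -0.12 at ZT19 and feature 17548230 at 0.02.

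One heart stood apart in these genes. In ZT11 replicate 1, 5 of the 9 members (Srsf1, Srsf2, Srsf3, Srsf4 and Srsf11) were lower than in any of the other 23 hearts, where 9.05% of all genes were. The mean over the 9 members was -0.24 in this heart, and lay between -0.11 and 0.09 in the others. Lists of related genes were low in it too: the mean of other SR and SR-related genes was -0.17 (others -0.09 to 0.06), that of SR protein kinase genes -0.21 (others -0.12 to 0.13) and that of hnRNP genes -0.16 (others -0.08 to 0.07). The heart was not extreme in these lists alone. Its mean was also the lowest for macrophage markers (-0.157, others -0.134 to 0.141), core spliceosome genes (-0.063, others -0.057 to 0.068) and all genes (-0.019, others -0.015 to 0.019). For adipocyte markers it was the highest (0.16, others -0.066 to 0.09). The remaining lists lay within the range of the other hearts. This array also had the lowest weight (0.54) and the largest SD over features (0.153). The ZT11 mean without this heart was -0.09 for Srsf3, 0.08 for Srsf2, -0.01 for Srsf1, -0.08 for Srsf11 and 0.04 for Srsf4. Srsf5, at -0.09, was the lowest of the 12 light-phase hearts there but not of all 24, and Luc7l3, at -0.08, lay within the range of the other ZT11 hearts. Without this heart light minus dark was 0.36 for Srsf5 and -0.24 for Luc7l3.

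Across all 22180 genes, the time-of-day F test with limma, which asks for any difference among the 6 time-point means, called 1.48% of genes at an adjusted p under 0.05, and 2 of the 9 members were among them, Srsf5 and Luc7l3. The test of a 24 h cosine called 0.0631% of genes and 1 member, Srsf5. Light minus dark called 0.379% of genes, 0.243% as higher and 0.135% as lower in the light phase, and 2 members, Srsf5 as higher and Luc7l3 as lower. Since the members were chosen with earlier results of these data known, nothing is read from these counts. The same holds for the single calls of Srsf5 and Luc7l3 and for how stable they were. The other 7 members passed none of these tests, although Srsf6 in the 24 h and the light-dark test and Srsf10 in the F test had an unadjusted p under 0.05. Of all genes, 10.8% in the 24 h test, 10.5% in light minus dark and 13.4% in the F test had one. The median of light minus dark was 0.00 over the 9 members and -0.00 over all genes, with 5 members above 0 and 4 below. The median 24 h amplitude was 0.07 over the members, 0.06 without Srsf5 and 0.03 over all genes. A fitted amplitude is never negative and grows with the spread between hearts, so these medians do not compare rhythms. Without ZT03 replicate 3 the F test no longer called Luc7l3 (adjusted p with limma 0.0509), and without ZT15 replicate 2 or ZT19 replicate 4 the 24 h test called it too.

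A measure that had no part in choosing the genes is how hearts of the same time point differ from each other. If members vary together between animals, a heart with more Srsf5 than its group should have more of them. Over all genes, 0 of 22179 followed Srsf5 within time points with limma at an adjusted p under 0.05 (0% of genes), and 7.96% had an unadjusted p under 0.05. Of the 8 other members, 0 had an unadjusted p under 0.05. The correlation of deviations from the time-point means, n = 24 hearts, was largest for Srsf1 (Pearson's r = 0.33, p = 0.222; Spearman's rho = 0.22, p = 0.383, two-sided permutation within time points). The adjusted p of Srsf1 with limma over all genes was 0.748. For Luc7l3, whose profile over time ran against that of Srsf5, r was 0.02 (permutation p = 0.94) and rho -0.09 (permutation p = 0.736). The other r values were 0.23 for Srsf4 (permutation p = 0.333), 0.20 for Srsf6 (0.45), 0.03 for Srsf3 (0.912), -0.00 for Srsf2 (0.994), -0.03 for Srsf10 (0.918) and -0.16 for Srsf11 (0.571). Their rho values lay between -0.10 and 0.22 (permutation p 0.346 to 0.936). Over the 8 members the adjusted p with limma lay at 0.748 or above. The 2 hearts whose deviation of Srsf5 from its time-point mean lay farthest from the median deviation were also left out. This left r between -0.22 for Srsf10 and 0.32 for Srsf1. A p above the threshold does not show that these genes vary apart. The SE of the slope on Srsf5, in log units per log unit, lay between 0.13 for Srsf6 and 0.37 for Srsf10.

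Over all 24 hearts, time of day included, the genes most like Srsf5 were Magi3, which codes for a scaffold protein at cell junctions (r = 0.83), Pitpnc1, of a phosphatidylinositol transfer protein (0.80), Add3, of the membrane skeleton protein adducin (0.80), and Dguok, of a mitochondrial deoxyguanosine kinase (0.78). They were followed by Nabp1 (0.76), Dhx36 (0.75), Intu (0.73), Arfgap1 (0.73), Deptor (0.73) and Kdelr2 (0.73). Those most unlike it were Hspa8, which codes for the constitutive HSP70 chaperone (-0.81), Itgax (-0.78), Ccar1 (-0.76), Spp2 (-0.76) and the small heat shock protein gene Hspb1 (-0.75). These are the extremes of the 22180 genes once members and gene models without a proper symbol were left out. They are given as a measure of likeness without a p. Among the members, r over the 24 hearts was highest for Srsf6 (0.48) and lowest for Luc7l3 (-0.49). Light minus dark was 0.28 ± 0.05 for Magi3 and -0.32 ± 0.06 for Hspa8 (SE).

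**Figure D3:**
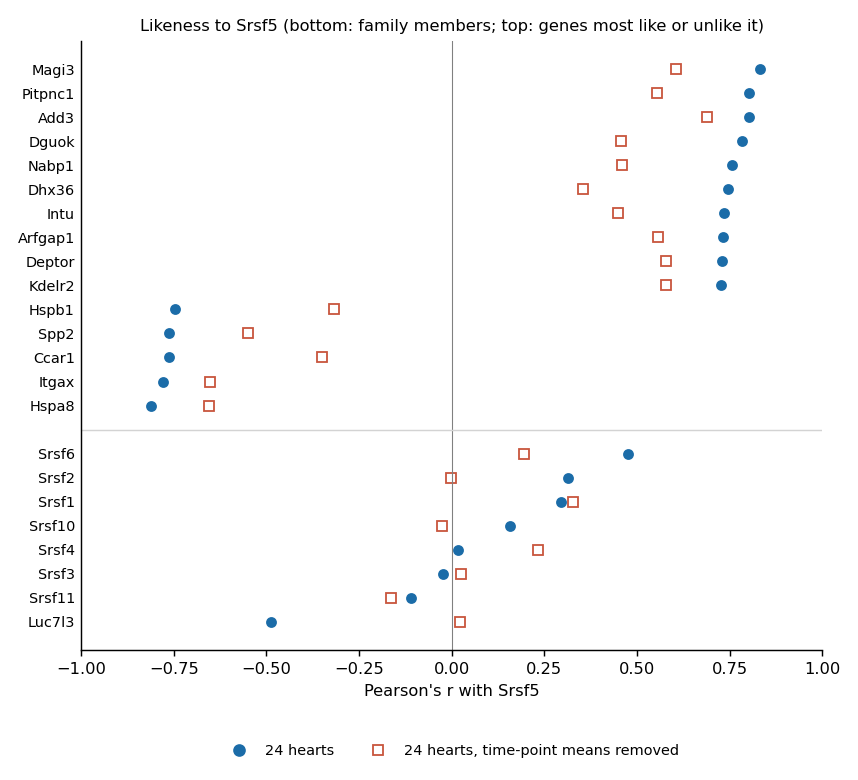
Pearson's r of each gene with Srsf5 over 24 hearts (filled circles) and after removing the time-point means (open squares), for the other 8 measured members at the bottom and, at the top, the genes most like or unlike Srsf5. The genes at the top reach 0.83 and -0.81, the members lie between -0.49 and 0.48.

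Of the 27 other SR and SR-related genes, all measured, Acin1 alone passed a test over all genes with limma. The shares of all genes that passed were 1.48% in the F test, 0.0631% in the 24 h test and 0.379% in light minus dark. Nothing is read from the count of passing genes in this list or the lists below. Acin1 codes for a subunit of a complex that joins the exon junction complex on spliced mRNA. It was lower in the light phase by -0.21 ± 0.04 (SE, adjusted p with limma 0.015), with the lowest, median and highest of 12 hearts at -0.27, -0.13 and 0.09 in the light phase, against -0.08, 0.10 and 0.23 in the dark phase. All 12 light-phase hearts lay below the dark-phase median. Its highest mean was at ZT15 (0.14 ± 0.07, SD, n = 4) and its lowest at ZT11 (-0.18 ± 0.07, SD), and it passed the F test (adjusted p = 0.026), but not without ZT03 replicate 3, ZT11 replicate 1 or ZT11 replicate 3. The light-dark call was kept with each heart left out (adjusted p with limma 0.0105 to 0.0302). Since the lists, like the members, were chosen with earlier results known, calls of list genes and their stability are a description. This holds for the lists below too. Over this list, 10 genes had a positive and 17 a negative light minus dark difference, with a median of -0.02. The remaining measured SRSF genes of the list, named here for their kinship, did not pass, with light minus dark at 0.02 ± 0.07 for Srsf9 and 0.01 ± 0.02 for Srsf12 (SE). Nor did the paralogs of Luc7l3, at 0.10 ± 0.09 for Luc7l and 0.06 ± 0.03 for Luc7l2 (SE).

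**Figure D4:**
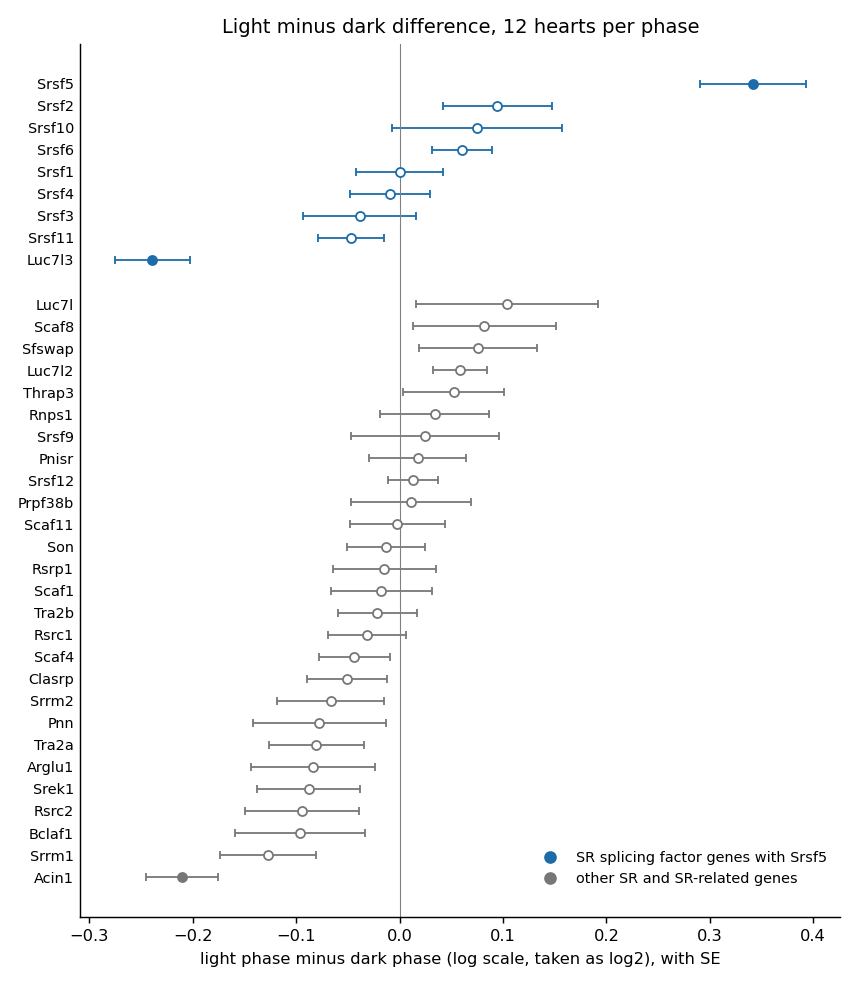
Light minus dark difference on a log scale taken as log2, with SE, over 12 hearts per phase, for the 9 measured members (top) and 27 other SR and SR-related genes (bottom). Filled points have an adjusted p under 0.05 over all genes, which is a description for both sets. Srsf5 at 0.34 and Luc7l3 at -0.24 lie apart from the other members, and Acin1 is at -0.21.

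Malat1, the long non-coding RNA of nuclear speckles that binds SR proteins, was lower in the light phase by -0.20 ± 0.04 (SE, adjusted p with limma 0.018) and differed between time points (adjusted p = 0.015). It averaged -0.27 ± 0.11 (ZT03), -0.13 ± 0.07 (ZT07) and 0.03 ± 0.07 (ZT11) in the light, and 0.13 ± 0.08 (ZT15), -0.04 ± 0.09 (ZT19) and 0.14 ± 0.13 (ZT23) in the dark (SD, n = 4). The phases were not apart at every time, since the mean at ZT11 in the light was above that at ZT19 in the dark. Of the 12 light-phase hearts, 10 lay below the dark-phase median. The features of Malat1 gave -0.26 ± 0.07 and -0.14 ± 0.04 (SE), and neither passed light minus dark by itself (adjusted p with limma 0.12 and 0.21). In the F test feature 17356556 passed (adjusted p with limma 0.044) and feature 17361798 did not (0.28). Malat1 was the only one of 6 genes for import of SR proteins, mRNA export and speckle RNA to pass. Of all genes, 1.48% passed the F test and 0.379% passed light minus dark.

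The proteins of hnRNP genes often act against SR proteins on the same transcripts. Of 25 measured hnRNP genes, Hnrnpd passed the F test (adjusted p with limma 0.038), which called 1.48% of all genes. The mean of Hnrnpd was highest at ZT03 (0.16 ± 0.08, SD, n = 4) and lowest at ZT11 (-0.10 ± 0.05, SD). This gene passed in 9 of 24 fits with 1 heart left out. The features of Hnrnpd differed, with a 24 h amplitude of 0.02 ± 0.03 for one and 0.21 ± 0.04 for the other (SE). Of 7 measured genes of nonsense-mediated decay, Smg9 passed the F test (adjusted p = 0.041), highest at ZT15 (0.11 ± 0.10, SD) and lowest at ZT23 (-0.13 ± 0.07, SD), and it passed in 8 of 24 such fits. No gene of the SR protein kinases (9 measured), the muscle and cardiac splicing regulators (10 measured) or the core spliceosome (33 measured) passed any of these 3 tests with limma. Of these genes, 2 kinases, 1 regulator and 4 spliceosome genes had an unadjusted p under 0.05 for the 24 h cosine, as had 10.8% of all genes. The smallest p for the cosine belonged to Srpk2 (24 h amplitude 0.09 ± 0.02, adjusted p = 0.16) and Srpk1 (0.12 ± 0.03, 0.23) among the kinases, Qk (0.11 ± 0.03, 0.27) and Celf1 (0.05 ± 0.02, 0.52) among the regulators, and Prpf4 (0.07 ± 0.02, 0.27) and Snrpd2 (0.10 ± 0.03, 0.36) in the spliceosome (SE, limma).

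**Figure D5:**
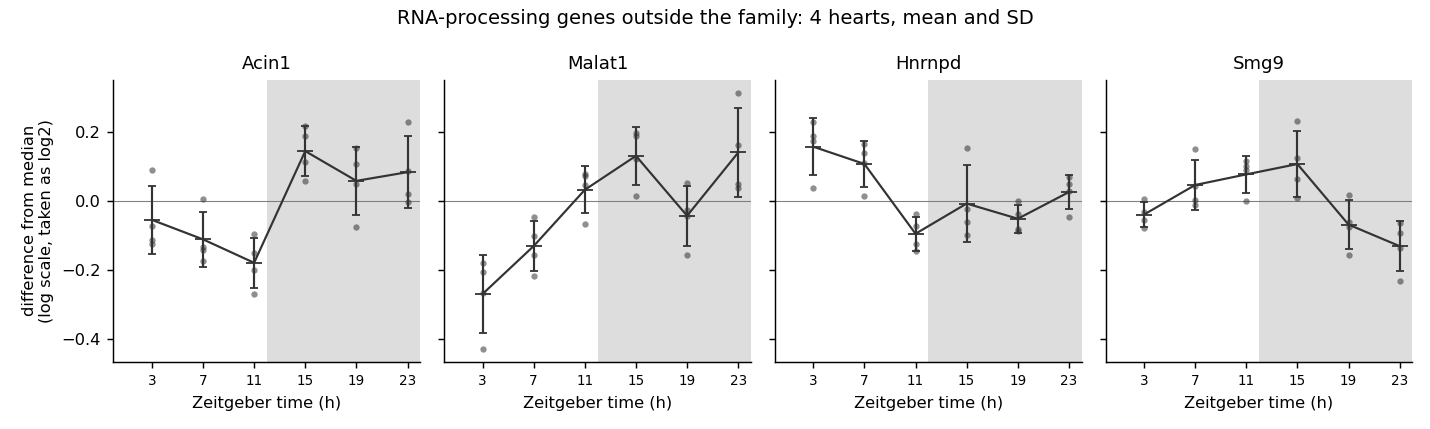
Acin1, Malat1, Hnrnpd and Smg9 by Zeitgeber time in hours, as differences from the median on a log scale taken as log2: points are the 4 hearts of a time point, bars the mean and SD, and grey the dark phase. Acin1 and Malat1 have their dark-phase means mostly above 0, Hnrnpd is highest at ZT03, and Smg9 is lowest at ZT23.

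Markers of cell types were set beside these genes. Of 7 fibroblast markers, Col1a1, Col3a1, Lum and Dcn were higher in the light phase (0.18, 0.18, 0.12 and 0.12), in the direction of Srsf5. Pdgfra, Tcf21 and Col1a2 lay near 0 (0.00 ± 0.04, 0.00 ± 0.07 and 0.01 ± 0.04, SE). The median of the 7 was 0.12, and 0 of 7 passed with limma, where light minus dark called 0.379% of all genes. In light minus dark 3 had an unadjusted p under 0.05 with limma, as had 10.5% of all genes. The mean over this list lay between -0.11 and 0.17 in light-phase hearts, against -0.19 and 0.06 in dark-phase hearts. Of 7 skeletal muscle markers, 6 were lower in the light phase (median -0.05), in the direction of Luc7l3. So were 6 of 7 endothelial markers (median -0.03) and 11661 of all 22180 genes. An unadjusted p under 0.05 with limma in light minus dark was found for 2 skeletal muscle and 0 endothelial markers. Ckm, a creatine kinase gene that heart muscle also expresses strongly, passed the F test (adjusted p with limma 0.018). It was the only one of the 7 skeletal muscle markers to pass a test. Its highest mean, at ZT11 (0.26), and its lowest, at ZT03 (-0.28), both fell in the light phase. The mean over the skeletal muscle list lay between -0.13 and 0.08 in light-phase hearts, against -0.03 and 0.11 in dark-phase hearts. The medians of the cardiomyocyte, endothelial, smooth muscle, macrophage, lymphocyte and adipocyte lists and of the 1 red blood cell marker lay between -0.03 and 0.02. The part of these markers in the results for Srsf5 and Luc7l3 was not tested.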

How the data were processed

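Per the labels' protocols, RNA was extracted with TRIzol and labelled with biotin by the Affymetrix protocol. The authors deposited 1 table of log-scale values, taken here as log2 and centred by feature on the median over 24 arrays. Not given in the sources used here are the log base, probe summarization, normalization and filters, and sizes would be larger if the base were e. Features with 1 symbol (23521) were averaged by gene, giving 22180 genes, with no filter. The 3 tests over time and the within-time slope on Srsf5 used limma 3.58.1 in R 4.3.3 (moderated tests, Benjamini-Hochberg over all genes, threshold 0.05) and were checked on simulated data. Correlations within time points used 100000 permutations. Members and lists were chosen with earlier results of these data known. Named genes were all members, list genes that passed or the 2 of smallest p, and the 10 most and 5 least like Srsf5. Gene models without a proper symbol were not named. Alternatives were quantile normalization, array weights, a robust prior, replicate block, a 12 h pair, single features and each heart left out. The number of arrays limits the precision. The hearts are labelled biological replicates. Promoter sequences are RefSeq, GRCm38.p6.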

Additional observations from a re-analysis of the deposited data

Results flagged for a closer look

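In 54 sets of 4 hearts (9 genes at 6 time points), 2 hearts lay far from the other 3 of their set, where chance gives about 1 in 20 sets. Srsf4 was at -0.24 in ZT11 replicate 1, with the others between 0.02 and 0.06. Srsf10 was at -0.009 in ZT03 replicate 4, with the others between 0.305 and 0.36.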

How the results depend on the processing

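Each gene is centred, so no filter on level could be tried. The time-of-day F test called 329 genes, and 28 (without ZT03 replicate 3) to 467 with each heart left out; it was also over 1.5 times lower without ZT03 replicate 1 or 2, ZT07 replicate 3, or ZT11 replicate 2 or 3. It called 218 with the replicate block, which changed no call among the members but lost those of Acin1, Hnrnpd and Smg9 in this test; light minus dark then called 76 genes and the 24 h test 11. The labels do not say whether equal numbers pair hearts. The median correlation of deviations was -0.001 over 60 same-numbered pairs, 8 of them over 0.1, and -0.001 over 180 pairs with different numbers. Such correlations cannot exclude something shared by hearts of equal number. The 24 h test called 14 genes, and 3 to 45 (without ZT19 replicate 4) with each heart left out. It moved by over 1.5 times without 13 of the 24 hearts: to 29 without ZT23 replicate 1, and to between 3 and 9 without ZT03 replicate 1 or 3, any of ZT07, ZT11 replicate 2, ZT15 replicate 1 or 4, ZT19 replicate 3 or ZT23 replicate 2. It called 30 with quantile normalization, 66 with array weights, 74 with a 12 h pair fitted beside and 3 without averaging of features. In the first 3 of these settings 2 members were called, Luc7l3 beside Srsf5, in place of 1. With each heart left out, 1 to 2 members were called in this test and in the F test. Light minus dark called 84 genes, and 51 (without ZT03 replicate 3; 53 without ZT07 replicate 3) to 183 (without ZT11 replicate 1) with each heart left out. It called 144 with quantile normalization and 131 without ZT11 replicate 1 and ZT19 replicate 2 together, a setting chosen after seeing the data. In every setting 2 members were called in light minus dark, a description only, since the members were chosen with earlier results known. The within-time association with Srsf5 called 0 genes in every setting. The calls of Hnrnpd and Smg9 were also lost with quantile normalization, and those 2 and Acin1 in the F test without both hearts named above. Without averaging of features, Smg9 did not pass the F test (adjusted p with limma 0.054). Hnrnpd then passed it with feature 17450022 (0.032) and not with feature 17439557 (0.84). Of 2861 recomputed values of single genes, 46 values of called genes outside the members lost their call. A further 13 values moved by more than their spread or SE. A change of direction was open only to the 24 h cosine of Srsf5 and to called light-dark differences, and 0 of these changed. Causes of these moves were not tested.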

Other observations

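Of the 25 measured hnRNP genes, 9 reached an unadjusted p below 0.05 for the 24 h cosine with limma (36% of the list, against 10.8% of all genes), and 0 passed over all genes. Fitted peaks of 6 of them fell between ZT0 and ZT6 and those of the other 3 between ZT18 and ZT24. Hnrnpm, chosen here after its values were seen, had the smallest p (24 h amplitude 0.15, peak ZT21.7, adjusted p = 0.093). Without ZT11 replicate 1, in which 8 of the 25 were lower than in any other heart, the count was 8 (all genes 10.8%), and all 8 were among the 9.

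Among the 10 genes with the smallest p for following Srsf5 within time points, Gpat4, whose enzyme starts glycerolipid synthesis, had a slope of 0.91 ± 0.17 (SE, adjusted p with limma 0.472), and the potassium channel gene Kcnj11 had 0.94 ± 0.19 (adjusted p = 0.472). The 10 genes had positive slopes from 0.47 for Cav1 to 0.94, and 0 of them passed.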
